A study of Homo sapiens with 6 samples.

Results

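The kinesin superfamily was followed in H1299 cells, an established line from a human non-small-cell lung tumour, after knockdown of RBP2, the older name of the histone demethylase KDM5A. Members were all genes whose platform symbol reads KIF or KIFC followed by a number, without antisense genes, which gave 41 of the 19775 genes on the array. Of these, 12 are motors of cell division and are called mitotic kinesins here, and the other 29 are mainly transport motors and motors of cilia. CENPE, a kinesin of the kinetochore, falls outside the symbol rule and is given among the partner genes.

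All cells were infected with lentivirus. The first knockdown group (KD1) and the second (KD2) carried 2 separate shRNAs against RBP2, and the scramble group (SC) carried a control shRNA. RNA was collected 72 hours after infection from cells grown with 10% serum, with 2 arrays in each of the 3 groups. Whether the arrays of a group came from separate cultures is not stated in the labels, so p-values refer only to the spread between the arrays, which could be technical. In bulk RNA, fewer dividing cells and less RNA per dividing cell cannot be told apart.

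Kinesins are motor proteins that use ATP to walk along microtubules or to take them apart at their ends. In dividing cells they push spindle poles apart, align chromosomes and organise the midzone at which the cell is cut in 2, and most of their genes are transcribed mainly in G2 and mitosis. The transport members carry vesicles, organelles and messenger RNA through the cytoplasm, or build and maintain cilia.

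All values are log2 array intensities as the authors deposited them. The levels of different probe sets cannot be set against each other, so only differences between groups are compared. A gene was called when its adjusted p in limma (Benjamini-Hochberg over all 10526 tested genes) was under 0.05, and "rose" and "fell" are used only of such genes. KDM5A itself read 7.42 and 7.27 in KD1 cells, 6.66 and 6.72 in KD2 cells, and 9.35 and 9.42 in SC cells, so both knockdown groups lay below SC without overlap. Its log2 fold change was -2.04 ± 0.11 (SE, n = 2 per group, limma adjusted p = 0.00475) in KD1 cells and -2.69 ± 0.11 (limma adjusted p = 0.00237) in KD2 cells. The keratins KRT8 and KRT18, vimentin and EGFR read between 8.54 and 15.04 on all arrays, whereas 4 of 4 leukocyte and 3 of 3 endothelial markers stayed below 4. Of 4 fibroblast markers 3 stayed below 4, and COL1A1 read 6.20 to 7.02.

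Mitotic kinesins were much lower in KD2 cells and not called in KD1 cells. With KD2, 10 of the 12 fell and 0 rose, where 14.4% of all tested genes fell and 31.0% were called in either direction, and the median log2 fold change of the 12 was -3.32 against 0.08 over all tested genes. With KD1, 0 of the 12 were called by limma, where 11.5% of all tested genes were called in either direction, and 0 of the 12 had an unadjusted p under 0.05. The median with KD1 was 0.06 against 0.00 over all tested genes, but it was -0.43 without KD1 replicate 1, 0.57 without KD1 replicate 2, 0.37 without SC replicate 1 and -0.21 without SC replicate 2. Between the knockdown groups, 11 of 12 were higher in KD1 than in KD2 cells, where 17.8% of all tested genes were higher. Both comparisons with SC use the same 2 SC arrays. With the replicate number as a block, 1 of 12 was called with KD1, where 29.6% of all tested genes were called, and 11 fell with KD2, where 22.2% fell.

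The motors that separate and shape the spindle poles had wide gaps between KD2 cells and the other groups. KIF11, the tetrameric motor that slides antiparallel microtubules apart, read 10.50 and 9.86 in KD1 cells, 6.53 and 6.79 in KD2 cells, and 10.03 and 9.54 in SC cells. Both KD2 arrays lay below the other 4, and the KD1 and SC arrays overlapped. Its log2 fold change was -3.12 ± 0.28 (SE, n = 2 per group, limma adjusted p = 0.00401) in KD2 cells, which is 8.72-fold lower. KIF15, which supports KIF11 in keeping a bipolar spindle, read 8.17 and 7.09 in KD1 cells, 3.48 and 3.87 in KD2 cells, and 8.15 and 7.46 in SC cells. It fell with KD2 (log2 fold change -4.13 ± 0.43, limma adjusted p = 0.00498). KIFC1, a minus-end-directed motor that focuses poles, read 8.02 and 6.6 in KD1 cells, 3.45 and 3.26 in KD2 cells, and 7.72 and 6.61 in SC cells. It fell with KD2 (log2 fold change -3.81 ± 0.58, limma adjusted p = 0.0105). KIF15 and KIFC1 were below 4 on both KD2 arrays, so they passed the filter on mean level through KD1 and SC cells, and the size of their fall is poorly measured at such dim values.

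Motors that act on chromosomes and on microtubule ends also stood low in KD2 cells, apart from KIF22, which just missed the threshold, and KIF18A. KIF4A, a chromokinesin that also sets the length of the midzone, read 10.85 and 9.85 in KD1 cells, 7.29 and 7.23 in KD2 cells, and 10.56 and 9.92 in SC cells. Its log2 fold change with KD2 was -2.98 ± 0.38 (SE, n = 2 per group, limma adjusted p = 0.00754), and its probe set could also bind a near-identical copy. KIF2C, which takes microtubules apart at kinetochores, read 10.65 and 9.19 in KD1 cells, 6.67 and 5.98 in KD2 cells, and 10.21 and 9.62 in SC cells. It fell 12-fold with KD2 (log2 fold change -3.59 ± 0.55, limma adjusted p = 0.0108). KIF18B, which acts with KIF2C on astral microtubules, read 10.69 and 9.25 in KD1 cells, 6.29 and 5.86 in KD2 cells, and 10.01 and 9.25 in SC cells. It fell 11.8-fold with KD2 (log2 fold change -3.56 ± 0.54, limma adjusted p = 0.0105). In these 3 genes both KD2 arrays lay below all others.

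KIF22, a chromokinesin that pushes chromosome arms away from the poles, read 9.04 and 8.0 in KD1 cells, 7.16 and 7.08 in KD2 cells, and 8.87 and 8.21 in SC cells. Both KD2 arrays lay below the other 4, but its log2 fold change of -1.42 ± 0.40 missed the threshold (limma adjusted p = 0.0502). With the replicate block it passed (limma adjusted p = 0.00958). KIF18A, which dampens chromosome oscillation at the metaphase plate, read 8.72 and 8.34 in KD1 cells, 8.11 and 8.77 in KD2 cells, and 8.72 and 8.87 in SC cells. It was the mitotic kinesin whose KD2 and SC arrays overlapped, with a log2 fold change of -0.36 (95% interval -1.02 to 0.31, limma adjusted p = 0.346) in KD2 cells. That interval does not reach the estimates of the 10 called members, the smallest of which was -1.73 (KIF20B). It does overlap the 95% interval of KIF20B (-2.54 to -0.93), and a difference between genes was not tested. KIF18A has 1 probe set, of a type that can cross-hybridise, so its values could not be set beside those of another.

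The motors of the midzone and of cytokinesis also stood low in KD2 cells. KIF20A, which brings the chromosomal passenger complex to the midzone, read 11.36 and 10.36 in KD1 cells, 7.20 and 5.97 in KD2 cells, and 10.48 and 9.72 in SC cells. It fell 11.4-fold with KD2 (log2 fold change -3.52 ± 0.56, limma adjusted p = 0.012). With KD1 its log2 fold change was 0.76 ± 0.56 (limma adjusted p = 0.437), and with the replicate block this became the single call of a mitotic kinesin with KD1 (adjusted p = 0.0218). KIF23, the motor of the centralspindlin complex, read 10.39 and 9.62 in KD1 cells, 8.15 and 7.51 in KD2 cells, and 10.22 and 9.81 in SC cells. It fell 4.54-fold with KD2 (log2 fold change -2.18 ± 0.35, limma adjusted p = 0.0125). KIF14, which recruits citron kinase to the midbody, read 9.94 and 8.74 in KD1 cells, 5.99 and 5.32 in KD2 cells, and 9.79 and 9.04 in SC cells. Its fall with KD2 was 13.6-fold (log2 fold change -3.77 ± 0.50, limma adjusted p = 0.00806). KIF20B, needed for abscission, read 9.04 and 8.50 in KD1 cells, 6.86 and 6.83 in KD2 cells, and 8.97 and 8.19 in SC cells. It had the smallest fall of the 10 (log2 fold change -1.73 ± 0.31, limma adjusted p = 0.0161).

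**Figure D1:**
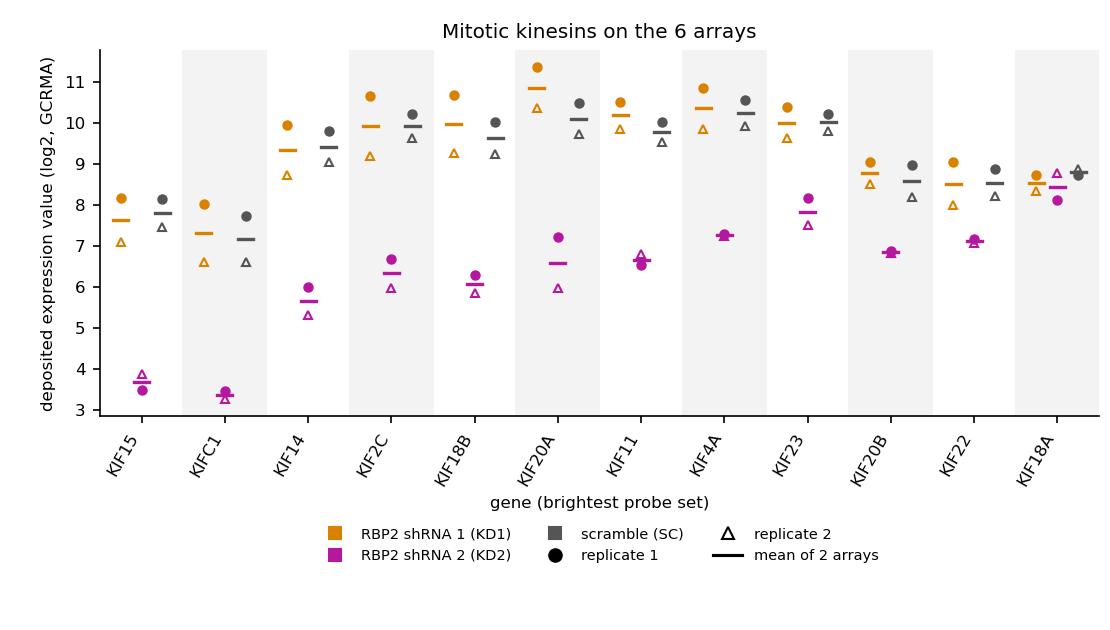
Log2 intensity (vertical axis) of the 12 mitotic kinesins on each array, with 1 point per array and a bar at the mean of the 2 arrays of a group, for KD1, KD2 and SC cells. In 11 of the 12 genes both KD2 points lie below all KD1 and SC points, and KIF18A is the exception. The share of all tested genes with such a separation was not counted.

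The direct comparison of the knockdown groups rests on arrays of both shRNAs and uses SC only for the spread. The 11 called mitotic kinesins were 2.63-fold to 19.3-fold higher in KD1 than in KD2 cells, with limma adjusted p between 0.00165 and 0.0428. KIF20A differed most (log2 difference KD1 minus KD2 of 4.27 ± 0.56, limma adjusted p = 0.00481), and KIF22 differed least (1.40 ± 0.40, limma adjusted p = 0.0428). The KIF22 call was lost without KD1 replicate 1, either KD2 array or either SC array, with adjusted p between 0.0616 and 0.177. KIF18A was not called (0.09, 95% interval -0.58 to 0.75, limma adjusted p = 0.817).

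Replicate number moved with the level of these genes. Replicate 1 was above replicate 2 for 12 of 12 mitotic kinesins in KD1 cells, with a median gap of 1.02, for 9 of 12 in KD2 cells (0.14) and for 11 of 12 in SC cells (0.67). For the 16 tested other kinesins the median gap was -0.16 in KD1, -0.02 in KD2 and 0.03 in SC cells. Of all 10526 tested genes, replicate 1 was above replicate 2 for 5211 in KD1, 4686 in KD2 and 5007 in SC cells. The median gaps over all tested genes were 0.0, -0.02 and 0.0. The count of 10 falls with KD2 was 1 without KD2 replicate 1, 2 without KD2 replicate 2, 2 without SC replicate 1, 9 without SC replicate 2 and 11 without either KD1 array, while 10 or 11 had an unadjusted p under 0.05 in each of these fits. The count of 11 between the knockdown groups was 6 without KD2 replicate 2. Of the 10 falls, KIF11 alone was called in every such fit.

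Where a gene had further probe sets, these gave the direction of the brightest one for KIF14 (log2 fold change with KD2 of -3.80), KIF22 (-1.23), KIF23 (-3.16) and KIF2C (-3.64), while the other probe sets of KIF20B stood at the floor.

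The promoters of mitotic genes are known for the CHR, a short element bound by the DREAM and MuvB complexes, and for CCAAT boxes bound by NF-Y. RefSeq windows (GRCh38.p14) from 250 bases before to 50 bases after a transcription start were searched on both strands for the CHR (TTTGAA or TTCGAA, the second being its own reverse complement and counted once), the CCAAT box (CCAAT) and E2F sites (TTTGGCGC, TTTCCCGC, TTTGCCGC or TTTCGCGC). All 12 mitotic kinesins had a window, and 10 of them held a CHR, which 16.4% of all 35116 windows hold. A CCAAT box was in 10 of 12, against 34.6% of all windows, and both motifs were in 9 of 12, against 6.4% of all windows. An E2F site was in 1 of 12, KIF15, against 3.3% of all windows. Of the other kinesins 21 of 29 had a window, with a CHR in 2, a CCAAT box in 7, both in 2 and an E2F site in 1. KIF2C, which fell, held none of the 3 motifs, and KIF18A, which was not called, held both a CHR and a CCAAT box.

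Shown are the windows of the 4 called mitotic kinesins with the smallest limma adjusted p with KD2. That of KIF18A was added after its values were seen. All 5 windows hold a CHR. They lie at chr10:92592880-92593179 on the plus strand (KIF11), chr3:44761544-44761843 on the plus strand (KIF15), chrX:70289854-70290153 on the plus strand (KIF4A), chr1:200620702-200621001 on the minus strand (KIF14) and chr11:28108107-28108406 on the minus strand (KIF18A). Capitals mark motif letters on either strand, and position 1 is the base that follows the first transcribed base.
KIF11: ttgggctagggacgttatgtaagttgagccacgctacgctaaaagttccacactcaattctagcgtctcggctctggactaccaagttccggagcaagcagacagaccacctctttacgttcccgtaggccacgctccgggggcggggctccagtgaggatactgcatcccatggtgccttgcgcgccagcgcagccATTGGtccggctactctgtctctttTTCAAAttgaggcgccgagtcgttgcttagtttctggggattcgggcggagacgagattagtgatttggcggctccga
KIF15: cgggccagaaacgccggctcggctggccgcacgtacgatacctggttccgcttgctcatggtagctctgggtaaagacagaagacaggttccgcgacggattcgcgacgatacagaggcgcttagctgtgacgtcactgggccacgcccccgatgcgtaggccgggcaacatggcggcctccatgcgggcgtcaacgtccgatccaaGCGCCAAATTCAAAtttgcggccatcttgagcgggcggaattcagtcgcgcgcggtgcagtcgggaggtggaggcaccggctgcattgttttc
KIF4A: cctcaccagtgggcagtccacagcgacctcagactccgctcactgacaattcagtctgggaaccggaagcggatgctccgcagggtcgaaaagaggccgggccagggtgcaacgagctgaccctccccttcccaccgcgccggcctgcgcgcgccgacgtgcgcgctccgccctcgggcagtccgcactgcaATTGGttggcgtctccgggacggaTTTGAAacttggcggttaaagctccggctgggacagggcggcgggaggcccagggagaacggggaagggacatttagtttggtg
KIF14: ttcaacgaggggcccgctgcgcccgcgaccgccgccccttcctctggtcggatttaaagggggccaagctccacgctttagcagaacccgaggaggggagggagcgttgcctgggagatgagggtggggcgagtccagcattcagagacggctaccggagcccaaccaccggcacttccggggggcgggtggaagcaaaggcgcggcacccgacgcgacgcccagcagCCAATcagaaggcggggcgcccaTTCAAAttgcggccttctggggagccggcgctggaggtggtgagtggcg
KIF18A: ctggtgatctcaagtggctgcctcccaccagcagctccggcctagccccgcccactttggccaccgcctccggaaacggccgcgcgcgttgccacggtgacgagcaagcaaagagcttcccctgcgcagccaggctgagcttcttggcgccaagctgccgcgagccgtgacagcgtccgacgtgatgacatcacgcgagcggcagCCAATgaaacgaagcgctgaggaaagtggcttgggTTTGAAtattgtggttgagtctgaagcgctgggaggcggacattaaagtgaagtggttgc
In KIF11 the CCAAT box spans positions -53 to -49 and the CHR -28 to -23. In KIF4A they span -58 to -54 and -34 to -29. KIF14 has its CCAAT box at -22 to -18 and its CHR at 1 to 6, downstream of the start. KIF15 has no CCAAT box, and its E2F site at -43 to -36 abuts its CHR at -35 to -30. In KIF18A the CCAAT box is at -45 to -41 and the CHR at -10 to -5. A match describes letters in a window and does not show that a factor binds there.

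**Figure D2:**
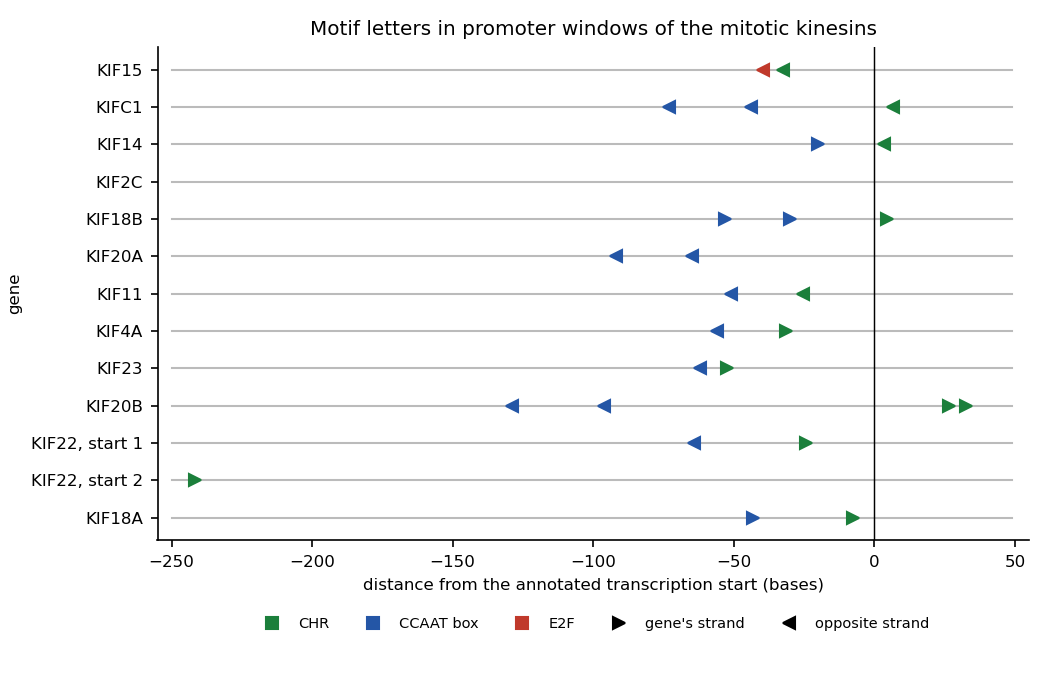
Positions of CHR, CCAAT box and E2F matches, in bases from the transcription start (horizontal axis), in the promoter windows of the mitotic kinesins (1 row per window). 10 of the 12 genes have a CHR, 10 have a CCAAT box and KIF2C has no match.

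The other kinesins changed in smaller numbers and in both directions. Of the 29, 16 passed the filter of a mean of at least 4. With KD2, 4 rose and 1 fell, where 16.7% of all tested genes rose and 14.4% fell. With KD1, 0 rose and 1 fell, where 3.62% rose and 7.90% fell. Between the knockdown groups 2 were higher and 5 lower in KD1 than in KD2 cells, where 17.8% and 23.3% of all tested genes were. Their medians were -0.04 with KD1 and 0.29 with KD2. With the replicate block 5 were called with KD1, namely KIF21A and KIF26A higher and KIF3A, KIF3C and KIF5C lower, where 12.8% and 16.8% of all tested genes were.

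Kinesin-1 is the main plus-end transport motor, with KIF5B made in most tissues and KIF5A and KIF5C mainly in neurons. KIF5C read 6.47 and 6.65 in KD1 cells, 9.93 and 9.90 in KD2 cells, and 8.07 and 7.87 in SC cells. The 3 groups did not overlap, with KD1 lowest and KD2 highest. KIF5C fell 2.66-fold with KD1 (log2 fold change -1.41 ± 0.13, SE, n = 2 per group, limma adjusted p = 0.00827) and rose 3.85-fold with KD2 (1.95 ± 0.13, limma adjusted p = 0.00315). Without the block KIF5C was the only kinesin called with both shRNAs, and in opposite directions. With the replicate block 4 kinesins were, of which KIF5C, KIF3A and KIF20A changed in opposite directions and KIF21A rose with both. It was 10.2-fold lower in KD1 than in KD2 cells (-3.36 ± 0.13, limma adjusted p = 0.00112). A dimmer probe set gave -2.35 with KD1 and 1.78 with KD2, and the dimmest one, near the floor, gave 0.0 and 0.30. The brighter probe sets of KIF5C are of a type that can cross-hybridise, so KIF5C could not be tested without such probe sets. The fall with KD1 missed the threshold without KD1 replicate 1 (adjusted p = 0.0563), SC replicate 1 (0.0696) or SC replicate 2 (0.0679). The gene lies on chromosome 2 from 148875227 to 149026759 (GRCh38.p14). KIF5B, the brightly measured member, read 12.26 and 12.13 in KD1 cells, 12.60 and 12.29 in KD2 cells, and 12.29 and 12.13 in SC cells, and was not called. KIF5A read 4.39 and 4.56 in KD1 cells, 4.14 and 4.79 in KD2 cells, and 4.0 and 3.63 in SC cells, close to the filter, and was not called.

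Kinesin-2 motors carry cargo along cilia and in the cytoplasm, and KIF3A pairs with KIF3B or KIF3C. KIF3B read 10.02 and 10.13 in KD1 cells, 10.94 and 10.99 in KD2 cells, and 9.74 and 9.80 in SC cells. KIF3B rose 2.30-fold with KD2 (log2 fold change 1.20 ± 0.11, SE, n = 2 per group, limma adjusted p = 0.00389), and this held in all 13 alternative fits. It was lower in KD1 than in KD2 cells (-0.89 ± 0.11, limma adjusted p = 0.00394). KIF3A read 8.42 and 8.61 in KD1 cells, 9.66 and 9.73 in KD2 cells, and 8.88 and 9.25 in SC cells, so that the 3 groups did not overlap. It rose with KD2 (0.62 ± 0.16, limma adjusted p = 0.0428), but that call was lost without any 1 of the 6 arrays, with adjusted p between 0.0505 and 0.171. With KD1 its log2 fold change was -0.56 ± 0.16 (limma adjusted p = 0.0977), and with the replicate block it passed (adjusted p = 0.0257). KIF3A was lower in KD1 than in KD2 cells (-1.18 ± 0.16, limma adjusted p = 0.00561). KIF3C read 6.85 and 6.80 in KD1 cells, 7.49 and 7.53 in KD2 cells, and 7.24 and 7.38 in SC cells. It was lower in KD1 than in KD2 cells (-0.69 ± 0.11, limma adjusted p = 0.00786), and passed with KD1 only with the block (-0.48 ± 0.11, adjusted p = 0.0537 without it and 0.0256 with it). A dimmer probe set of KIF3C gave -0.46 with KD1 and 2.86 with KD2. KIF3A, KIF3B and KIF3C were thus lower in KD1 than in KD2 cells, and the kinesin-2 motor KIF17 was not tested.

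Of the kinesins that carry synaptic vesicle precursors and mitochondria, KIF1B read 9.87 and 9.89 in KD1 cells, 6.35 and 7.35 in KD2 cells, and 9.99 and 9.92 in SC cells. KIF1B fell 8.59-fold with KD2 (log2 fold change -3.10 ± 0.33, SE, n = 2 per group, limma adjusted p = 0.00498). Its probe sets disagreed, since another gave 1.26 and a further one -1.92 with KD2. With all its probe sets averaged the log2 fold change was -0.94. The gene is known to make alternative transcripts, and which of them each probe set reads was not tested. KIF1C read 7.26 and 7.42 in KD1 cells, 7.49 and 7.30 in KD2 cells, and 7.41 and 7.27 in SC cells, and was not called. Another KIF1C probe set of similar brightness read 7.67 and 7.52 in KD1 cells, 7.23 and 7.10 in KD2 cells, and 6.66 and 6.23 in SC cells, a log2 difference of 1.15 with KD1 and 0.72 with KD2, so the 2 probe sets disagree. KIF1A, a neuronal relative, stood below 4 on all arrays and was not tested.

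KIF21A, which restrains microtubule growth, read 12.13 and 12.40 in KD1 cells, 12.40 and 12.34 in KD2 cells, and 11.59 and 11.71 in SC cells. Both knockdown groups lay above SC without overlap. It rose with KD2 (log2 fold change 0.72 ± 0.14, SE, n = 2 per group, limma adjusted p = 0.0174), and without either KD2 array or either SC array the adjusted p was between 0.0634 and 0.1. With KD1 its log2 fold change of 0.62 ± 0.14 missed the threshold (limma adjusted p = 0.0507) and passed with the replicate block (0.0218). KIF9, a motor of motile cilia, read 8.59 and 8.17 in KD1 cells, 9.55 and 9.16 in KD2 cells, and 8.95 and 8.45 in SC cells. The brighter KIF9 probe sets are all of a type that can cross-hybridise, and the remaining one stayed at 2.62 on all arrays. KIF9 was lower in KD1 than in KD2 cells (-0.98 ± 0.26, limma adjusted p = 0.0345) but not called against SC without the block (0.66 ± 0.26 with KD2, adjusted p = 0.113, and 0.00515 with the block). Its call between the knockdown groups was lost without either KD1 array or either KD2 array, with adjusted p between 0.0617 and 0.176. KIF2A, a relative of KIF2C that trims microtubules, read 10.72 and 10.40 in KD1 cells, 10.20 and 9.97 in KD2 cells, and 10.62 and 10.48 in SC cells. It was called with KD2 only with the block (-0.47 ± 0.16, adjusted p = 0.088 without it and 0.0153 with it). The endosome motors KIF13A (10.58 and 10.91 in KD1, 10.87 and 10.95 in KD2, 10.51 and 10.63 in SC cells) and KIF16B (6.44 and 6.95 in KD1, 7.17 and 7.20 in KD2, 6.79 and 6.73 in SC cells) were not called. KIF13B read 5.26 and 5.65 in KD1 cells, 5.26 and 5.31 in KD2 cells, and 5.65 and 5.65 in SC cells, and was not called either.

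KIF26A, which lacks motor activity, read 4.35 and 4.47 in KD1 cells and 4.0 on both KD2 and both SC arrays, where it stood at its own lowest value. It was higher in KD1 than in KD2 cells (log2 difference 0.41 ± 0.11, SE, n = 2 per group, limma adjusted p = 0.0327), with the KD2 level at the lowest value of its probe set, and the call was lost without any 1 of the arrays, with adjusted p up to 0.114. KIFC2 was not called in any comparison. The 13 untested members, KIF17, KIF25, KIF26B, KIFC3, KIF7, KIF1A, KIF24, KIF6, KIF19, KIF12, KIF27, KIF21B and KIF2B, were below 4 on every array, and 10 of them varied by less than 0.1 over the arrays. The members nearest the filter were KIF26A (mean 4.14) and KIF5A (4.25) inside it and KIF17 (3.47) and KIF25 (3.31) outside it.

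**Figure D3:**
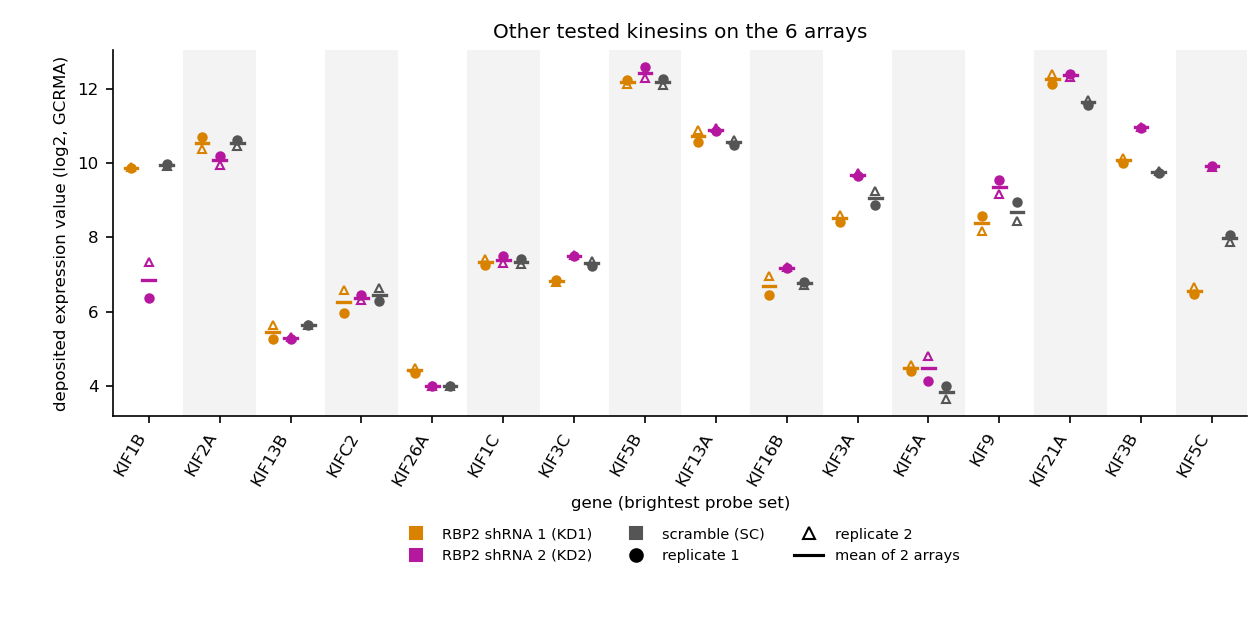
Log2 intensity (vertical axis) of the 16 tested other kinesins on each array, 1 point per array with a bar at the mean of the 2 arrays, for KD1, KD2 and SC cells. KIF5C separates into 3 levels with KD1 lowest and KD2 highest, and KIF1B is low in KD2 cells.

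**Figure D4:**
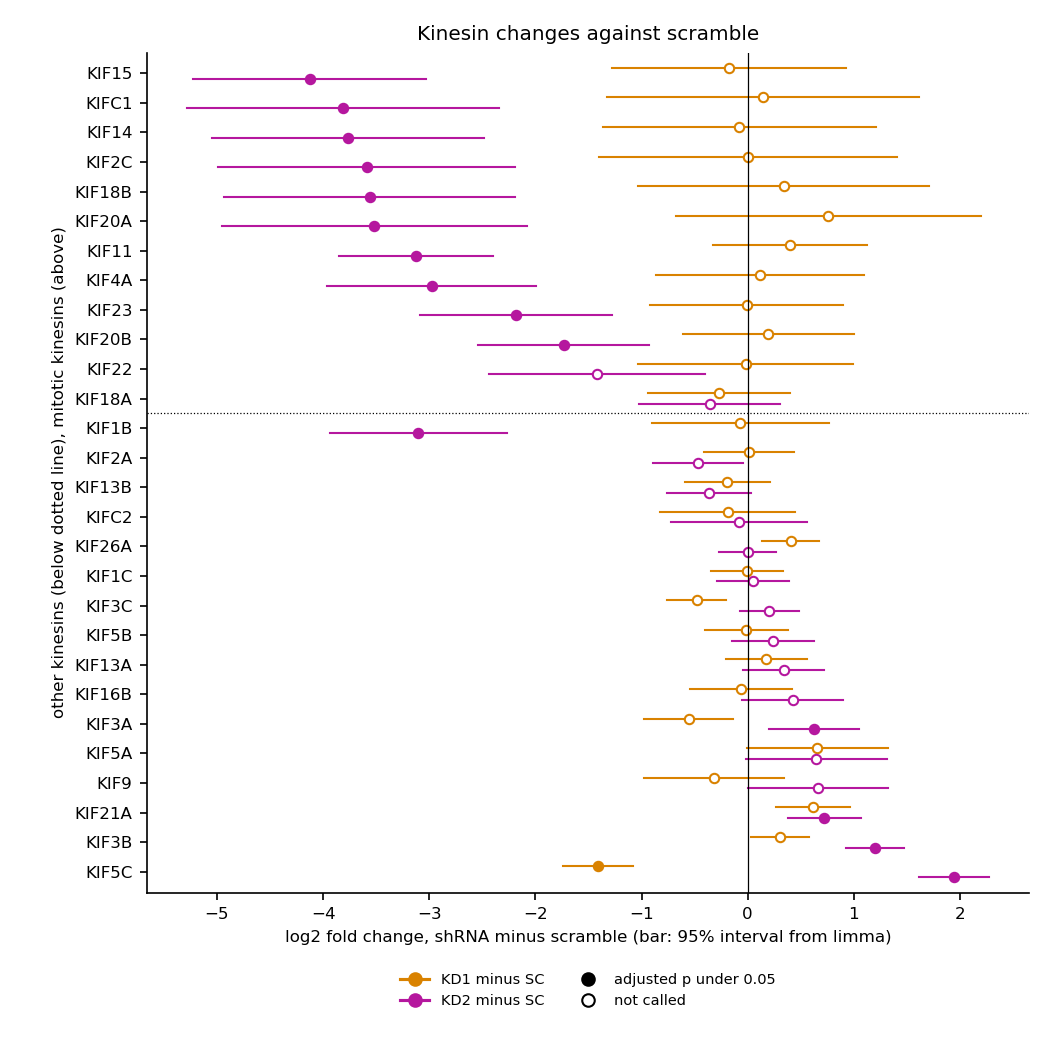
Log2 fold change of each tested kinesin (horizontal axis) with KD1 and with KD2 against SC, where points are the estimates, bars the 95% intervals of limma and filled points are called genes. The mitotic kinesins lie near 0 with KD1 and between -4.13 and -0.36 with KD2.

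Genes that work with the kinesins were counted from lists drawn up with earlier results of these data known, so the counts are no independent evidence of direction. Among the spindle and midzone partners of the mitotic kinesins, 25 of 30 tested fell with KD2 and 0 rose, where 14.4% of all tested genes fell, with a median log2 fold change of -2.64. With KD1, 0 of them were called by limma, where 11.5% of all tested genes were, and 0 had an unadjusted p under 0.05 (2 fell with the block, where 16.8% fell). CENPE, the kinetochore kinesin outside the symbol rule, read 9.38 and 8.36 in KD1 cells, 5.49 and 5.43 in KD2 cells, and 9.49 and 8.92 in SC cells. It fell with KD2 (log2 fold change -3.74 ± 0.38, SE, n = 2 per group, limma adjusted p = 0.00483). NEK6, a mitotic kinase that acts on KIF11, HMMR and CEP55 fell too, by 1.59, 3.52 and 3.56 on the log2 scale. Of 18 proliferation markers 13 fell with KD2 (median -2.63), where 14.4% of all tested genes fell, and 1 fell with KD1, near the 7.90% of all tested genes. TOP2A, CDK1, BUB1B and CCNA2 each fell by 3.00 to 3.84 on the log2 scale with KD2. MKI67 read 9.53 and 7.86 in KD1 cells, 6.52 and 5.18 in KD2 cells, and 9.66 and 8.78 in SC cells. The part of a changed share of dividing cells in the mitotic kinesin values was not tested. The count of falls among spindle partners with KD2 was 2 without KD2 replicate 1, 5 without KD2 replicate 2 and 10 without SC replicate 1, and that of proliferation markers was 1, 1 and 3.

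Of 19 tested regulators of mitotic and E2F genes, which include both activators and repressors, 4 fell with KD2, where 14.4% of all tested genes fell. With the block 2 rose and 9 fell, where 28.4% and 22.2% of all tested genes did, so falls exceeded that share. Between the knockdown groups 8 were higher and 0 lower in KD1 than in KD2 cells, where 17.8% and 23.3% of all tested genes were. The 4 that fell without the block include RB1 (log2 fold change -1.39 ± 0.20, limma adjusted p = 0.00997) and NFYA (-1.04, adjusted p = 0.0164). With KD1, 1 rose and 1 fell, where 11.5% of all tested genes were called. The MuvB subunit LIN9 fell by 0.59 (adjusted p = 0.0189) with KD2. FOXM1 and MYBL2 had log2 fold changes of -1.90 and -1.98 with KD2 and passed only with the block (adjusted p = 0.0525 and 0.0666 without it, 0.00153 and 0.0032 with it). Leaving out 1 array gave 0 to 6 calls among these regulators with KD2 and 0 with KD1.

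Without the block, partners of the transport motors were called about as often as all tested genes with KD2, of which 31.0% were called (50.6% with the block). Among 19 tested light chains and cargo adaptors, 3 rose and 2 fell with KD2 (10 called with the block). Of them 0 were called by limma with KD1, where 4 had an unadjusted p under 0.05 and 4 were called with the block, against 11.5% of all tested genes (29.6% with the block). The adaptor TRAK2, which links kinesin-1 to mitochondria, rose by 0.93 (limma adjusted p = 0.0132), and KTN1, a kinesin receptor, fell by 0.76 (adjusted p = 0.00856). Of 24 dynein and dynactin genes, the opposing motor, 5 rose and 3 fell with KD2, near the shares of all tested genes. With the block these KD2 counts stayed the same, below the 50.6% of all tested genes called. With KD1, 1 rose and 2 fell (9 called with the block), again near the shares of all tested genes. The dynein light chain DYNLRB1 rose with both shRNAs, by 1.74 with KD1 (limma adjusted p = 0.00562) and 2.56 with KD2 (adjusted p = 0.00237). DYNLT3 fell by 2.26 with KD2 (adjusted p = 0.00339). Of 14 tubulins, the track itself, 2 rose and 3 fell with KD2 (8 called with the block, of which 3 rose, where 28.4% of all tested genes rose), and 2 fell with KD1, where 7.90% of all tested genes fell. TUBA1A fell by 0.73 with KD1 (adjusted p = 0.0471) and rose by 0.95 with KD2 (adjusted p = 0.0128), whereas TUBB2B fell by 1.32 with KD2 (adjusted p = 0.00471). TUBE1 fell with both shRNAs, by 1.22 with KD1 (limma adjusted p = 0.0244) and 1.07 with KD2 (adjusted p = 0.0149). TUBG2 rose by 1.43 with KD2 (limma adjusted p = 0.00818). Leaving out 1 array gave 0 to 6 calls among adaptors, 2 to 7 among dynein and dynactin genes and 2 to 5 among tubulins with KD2. With KD1, calls among dynein and dynactin genes became fewer in each such fit. The KD1 calls of TUBA1A and TUBE1 were both lost without any 1 of the 6 arrays.

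**Figure D5:**
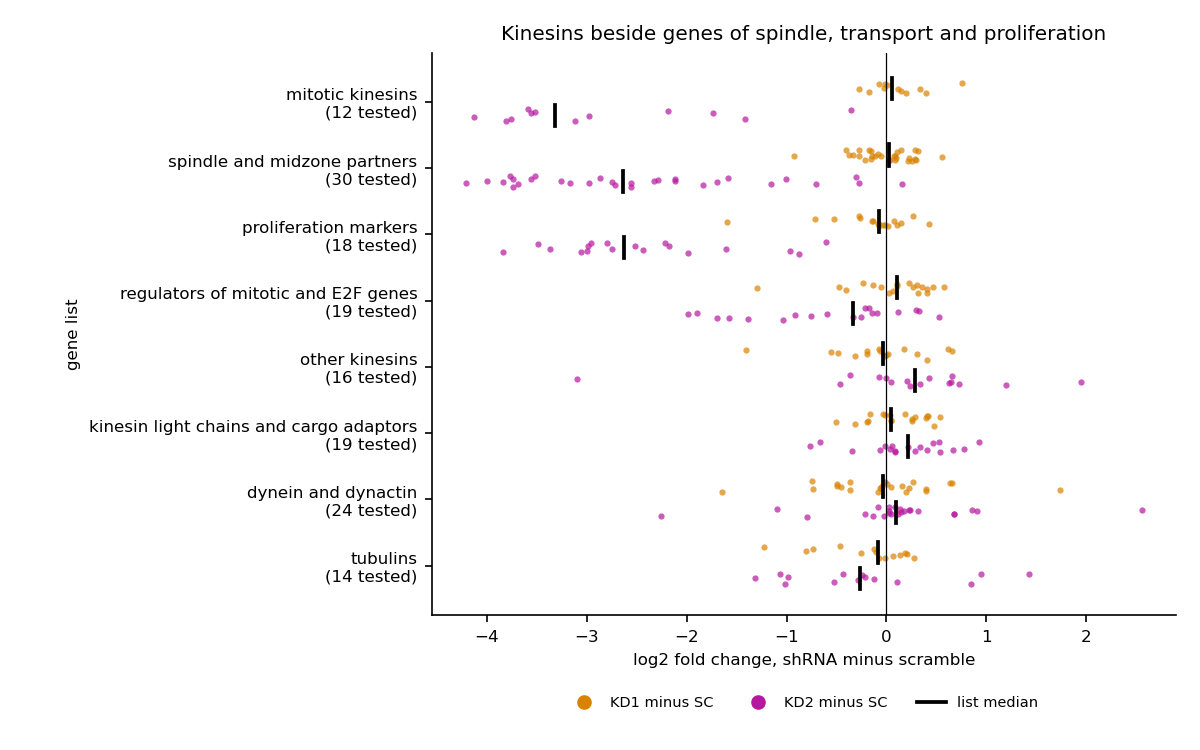
Log2 fold change against SC (horizontal axis) of every tested gene of 8 lists (rows), 1 point per gene with KD1 and with KD2, and a black bar at each list's median. The KD2 medians of the mitotic kinesins (-3.32), the spindle and midzone partners (-2.64) and the proliferation markers (-2.63) lie far below 0, and the KD1 medians lie near 0.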

How the data were processed

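Arrays of biotin-labelled cRNA made from 250 ng of total RNA were used as deposited. Per the submitters' processing notes, the authors used GCRMA (version not given in the sources used here), and their deposited values are log2 intensities. This method corrects background from probe sequence and pulls dim probe sets to a floor, which was 2.24 and held 37.8% to 38.7% of each array's values, so falls to it are understated. Of 54675 probe sets 41091 carried 1 symbol. Each gene took its brightest such probe set over the 6 arrays, and the 10526 genes with a mean of at least 4 were tested. Groups were compared with limma 3.58.1 in R 4.3.3 by 1 linear model over all arrays, two-sided, with Benjamini-Hochberg adjustment over all tested genes and a call at adjusted p under 0.05. The number of arrays limits precision, and the median SE was 0.17. Scripts were tested on simulated data. Replicate numbers come from the sample titles, and deviations of same-numbered arrays correlated across genes at 0.75 (KD1 with SC), 0.51 (KD2 with SC) and 0.53 (KD1 with KD2), so they were taken to pair the arrays. Blocked values stand beside results whose call they change or whose count they move by over 1.5 times. Alternatives were another filter or none, all probe sets of a gene, no cross-hybridising probe sets, quantile normalization, only the groups compared, the replicate block and leaving out each array. All mitotic kinesins were named, with other kinesins called in any comparison or of known cargo roles, and up to 4 genes of each partner list by adjusted p with KD2; further list genes (FOXM1, MYBL2, MKI67) were picked after their values were seen. Members and lists were chosen with earlier results of these data known. Promoter windows are RefSeq's of GRCh38.p14.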

Additional observations from a re-analysis of the deposited data

Results flagged for a closer look

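The effects of the 2 shRNAs, each against the same SC arrays, differed by the limma test of KD1 minus KD2 for 18 kinesins. These were 11 of the 12 mitotic kinesins and 7 of the 16 tested other kinesins. Of all tested genes 41.1% were called (17.8% higher and 23.3% lower in KD1 than in KD2 cells). As log2 differences, KIF23 was higher in KD1 than in KD2 cells by 2.17, KIF4A by 3.09, KIF20A by 4.27, KIF11 by 3.52, KIF2C by 3.59 and KIF18B by 3.90. KIF14 was higher in KD1 cells by 3.69, KIF20B by 1.93, KIF22 by 1.40, KIF15 by 3.96 and KIFC1 by 3.96. Of the other kinesins, KIF1B was higher in KD1 cells by 3.03 and KIF26A by 0.41. KIF3B (-0.89), KIF3A (-1.18), KIF9 (-0.98), KIF5C (-3.36) and KIF3C (-0.69) were lower in KD1 than in KD2 cells. KDM5A itself was higher in KD1 than in KD2 cells by 0.65 (limma adjusted p = 0.0101), and whether its level accounts for any of these differences was not tested.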

How the results depend on the processing

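With the replicate block, calls over all tested genes came to 3117 with KD1 (1213 without it) and 5324 with KD2 (3264), mitotic kinesins called with KD1 to 1 (0) and other kinesins with KD1 to 5 (1). In this balanced design the block leaves every fold change as it was. Other kinesins called with KD1 came to 2 with a mean of at least 6 and to 3 with all probe sets averaged. Without a filter, 2 mitotic kinesins (10) and 3 other kinesins (5) were called with KD2 and 4 mitotic kinesins (11) between the knockdown groups, and 10 mitotic kinesins had an unadjusted p under 0.05 with KD2. Without cross-hybridising probe sets, 4 other kinesins (7) were called between the knockdown groups, and DCTN4, which fell with KD2, had a log2 fold change of 0.15. Leaving out 1 array gave 0 to 191 called genes with KD1, 622 to 2928 with KD2 and 1874 to 3717 between the knockdown groups. Mitotic kinesins called ranged from 0 to 0 with KD1, 1 to 11 with KD2 and 6 to 11 between the knockdown groups, and other kinesins from 0 to 1, 3 to 4 and 5 to 6. The KD1 minus KD2 difference of KIF18A, 0.09, ranged from -0.24 to 0.41, with -0.10 without KD1 replicate 1 and -0.24 without KD2 replicate 1. The partner lists were put through the same alternatives after the data had been seen, and for their named genes, leaving out 1 array kept the call in 225 fits and lost it in 87. The cause of these shifts was not tested. Counts that the block moved by less than 1.5 times include proliferation markers with KD2 (18 with it, 13 without), spindle partners with KD2 (27, 25) and other kinesins with KD2 (7, 5). With 2 arrays per group, leaving 1 out leaves 2 residual degrees of freedom and the lone array is assumed to vary like the others. Dim kinesins near the floor limit what could be measured.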
